A study of Mus musculus with 39 samples.

Results

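The collagen gene family encodes the alpha chains of the triple-helical proteins that make up most of the extracellular matrix. It was described here in left ventricles of mice with an inherited cardiomyopathy allele and of mice with ischemic heart injury. The members were the protein-coding genes whose symbol is Col, a number, the letter a and a number, which gave 44 of the 38293 genes counted. They were sorted by structure into 11 fibrillar chains, 9 FACIT chains (fibril-associated collagens with interrupted triple helices), 6 basement membrane chains of type IV, 6 type VI chains, 4 transmembrane collagens, 3 short-chain network collagens (types VIII and X), 2 multiplexins (types XV and XVIII) and 3 further chains (Col7a1, Col26a1 and Col28a1). The lowest total over the 39 libraries was 8 reads for Col19a1, and Col10a1 (9 reads), Col6a4 (34 reads) and Col17a1 (88 reads) were also too scarce for any test. The other 40 members were tested in at least 1 comparison.

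The study measured polyadenylated RNA by sequencing in 39 mouse left ventricle libraries, with 9402904 to 19320791 counted reads each. Mice homozygous for the phospholamban R14del allele (Pln R14del/R14del, strain C57BL6/J, no surgery) were sampled at 3, 5 and 8 weeks of age with 4 libraries each, heterozygous Pln wt/R14del mice at 8 weeks with 4 libraries, and wild-type mice at 3, 5 and 8 weeks with 4, 4 and 3 libraries. Pln encodes the small membrane protein that restrains calcium uptake into the sarcoplasmic reticulum, and R14del removes a single arginine, a variant known from human dilated and arrhythmogenic cardiomyopathy. The surgical groups were wild-type male C57Bl6/J mice operated at 12 weeks of age. Of these, 4 had a permanent ligation of the left anterior descending coronary artery and were sampled 8 weeks later at 20 weeks of age (myocardial infarction, MI), and 4 had a temporary ligation and were sampled 3 days later (ischemia-reperfusion, I/R). Another 4 had a sham operation, 2 of them aged 12 weeks and 2 aged 20 weeks at sampling. After both injuries remote myocardium was taken, so the values do not describe the scar. The sex of the genotype groups is not given in the sources used here, and where nothing states that libraries came from separate animals, p-values measure the spread between these libraries. Gene counts cannot show the R14del allele itself.

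Collagen chains are folded into triple helices in the endoplasmic reticulum, where prolines and lysines are hydroxylated and the chaperone HSP47 binds the helix. Fibrillar procollagens are then secreted, trimmed at both ends and crosslinked outside the cell by lysyl oxidases. In the heart, fibroblasts make most of the fibrillar types I and III and of type VI, while type IV forms the basement membrane around cardiomyocytes and capillaries, and deposition of fibrillar collagen is the hallmark of cardiac fibrosis.

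Promoters of members whose results are set side by side throughout were read from RefSeq on GRCm38.p6, from 250 bases before to 50 bases after each start. Col1a2 (chr6:4505368-4505667, plus strand) and Col3a1 (chr1:45311288-45311587, plus strand) are shown because these fibrillar chains rose together. Col4a1 (chr8:11312777-11313076, minus strand) and Col4a2 (chr8:11312555-11312854, plus strand) are shown because the starts of these basement membrane chains lie 21 bases apart on opposite strands, so their windows overlap. Capitals mark the CCAAT box, the GC box with the letters GGGCGG and the TATA box with the letters TATAAA, on either strand.
Col1a2: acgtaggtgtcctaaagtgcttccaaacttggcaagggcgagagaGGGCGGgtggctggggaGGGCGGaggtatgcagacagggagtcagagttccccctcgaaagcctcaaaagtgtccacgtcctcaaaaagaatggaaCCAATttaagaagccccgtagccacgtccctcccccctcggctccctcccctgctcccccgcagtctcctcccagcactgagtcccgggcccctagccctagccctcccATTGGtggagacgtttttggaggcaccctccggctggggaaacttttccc
Col3a1: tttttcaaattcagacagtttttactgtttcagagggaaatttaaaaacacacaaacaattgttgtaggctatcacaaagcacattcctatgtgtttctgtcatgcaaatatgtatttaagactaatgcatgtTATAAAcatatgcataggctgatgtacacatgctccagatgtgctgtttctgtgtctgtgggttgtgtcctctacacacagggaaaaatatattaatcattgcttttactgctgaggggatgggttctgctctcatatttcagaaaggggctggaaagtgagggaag
Col4a1: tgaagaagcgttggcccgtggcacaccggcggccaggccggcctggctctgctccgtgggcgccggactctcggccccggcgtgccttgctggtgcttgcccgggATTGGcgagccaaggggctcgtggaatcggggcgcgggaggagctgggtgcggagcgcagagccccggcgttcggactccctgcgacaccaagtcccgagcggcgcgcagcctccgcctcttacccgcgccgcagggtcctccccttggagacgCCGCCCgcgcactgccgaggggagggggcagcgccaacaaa
Col4a2: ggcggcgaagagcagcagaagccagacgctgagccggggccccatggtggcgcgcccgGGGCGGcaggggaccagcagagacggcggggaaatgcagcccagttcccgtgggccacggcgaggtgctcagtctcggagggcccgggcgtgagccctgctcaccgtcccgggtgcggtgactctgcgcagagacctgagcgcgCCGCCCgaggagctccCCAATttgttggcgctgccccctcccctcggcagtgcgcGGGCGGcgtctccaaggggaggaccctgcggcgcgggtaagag
The Col1a2 window held 2 CCAAT and 2 GGGCGG matches, whereas the Col3a1 window held neither of these and 1 TATAAA match. The Col4a1 window held 1 CCAAT and 1 GGGCGG match, and the Col4a2 window held 1 CCAAT and 3 GGGCGG matches. Of the 44 members, 35 had a promoter in the RefSeq table, and Col1a1 and Col5a2 are named without one. CCAAT was found in 34.3% of the 35 member promoters, against 37.9% of all 27025 promoters. GGGCGG was found in 62.9% of the member promoters, against 35.9% of all promoters. TATAAA was found in 14.3% of the member promoters and 14.2% of all promoters, and TGANTCA, the AP-1 motif, in 2.9% of the member promoters and 7.9% of all promoters. These are letter matches in the windows and not measured sites. The TATAAA match of Col3a1, for example, began 117 bases before the start. Col5a2, on the minus strand of chromosome 1 from 45374321 to 45503282, is separated from Col3a1 by 24614 bases.

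A few libraries stood apart in collagen level. Homozygous replicate 4 at 8 weeks had a summed collagen level of 16576 CPM (reads of a gene scaled to the same total of counted reads in each library), against 6222, 7966 and 9932 CPM in the other 3 homozygous libraries of that age, and it was the highest of the 4 for 25 of the 36 collagens tested. Its summed fibroblast marker level of 6955 CPM was not the highest of its group, whose other libraries had 6788, 11934 and 8630.0 CPM. Heterozygous replicate 2 was the highest of its group for 27 of 36 collagens, with 4770 CPM in all against 3521 to 3547 CPM. Homozygous replicate 3 at 3 weeks was the highest for 28 of 35, with 9787 CPM against 5891 to 7561 CPM. Homozygous replicate 1 at 8 weeks was the lowest of its group for 24 of 36 collagens. Its counts were also the farthest from the others, at a chi-square per gene of 57.3 to 97.4, where the other pairs of that group gave 21.9 to 50.6. Calls against wild type at 8 weeks that were lost without homozygous replicate 4 or 1 are named beside their values. The 5-week libraries carry names of another scheme than those of 3 and 8 weeks, so in comparisons of 5 weeks with another age the age and any separate preparation cannot be told apart. Mitochondrial genes took 14.6 to 15.9% of reads in homozygous hearts at 5 weeks and 19.9 to 21.1% in wild type of that age, and 15.5% in replicate 1 and 8.27 to 10.6% in the other 3 homozygous hearts at 8 weeks, 16.8 to 18.6% in heterozygous hearts and 15.2 to 16.5% in wild type. The cardiomyocyte markers Myh6, Tnnt2, Tnni3, Actn2, Ryr2, Ttn, Myl2 and Myl3 were detected in every group.

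In wild-type ventricles the basement membrane chains were the most abundant collagen transcripts. On the TPM scale (reads per gene length, brought to the same total in each library), Col4a1 averaged 639 ± 91.8 TPM at 3 weeks, 519 ± 48.9 TPM at 5 weeks and 369 ± 57.0 TPM at 8 weeks (SD, n = 4, 4 and 3). Col4a2, its partner in the ubiquitous type IV helix, followed with 558 ± 59.6, 399 ± 37.1 and 328 ± 44.7 TPM. The ranges of these chains overlapped at 3 and at 8 weeks and did not overlap at 5 weeks. Col3a1, the single chain of type III collagen, was next with 339 ± 51.2, 184 ± 17.8 and 120 ± 4.40 TPM at the 3 ages. The order below it at 8 weeks was Col6a1 at 105 ± 1.80 TPM, Col1a1 at 94.7 ± 5.90 TPM and Col15a1 at 83 ± 2.6 TPM, and these 3 did not overlap over the 3 libraries. In sham-operated ventricles the mean levels kept the same first 6 members, from 169 ± 39.6 TPM for Col4a1 to 42.0 ± 16.4 TPM for Col15a1 (n = 4), but neighbours in that order overlapped. At 8 weeks, 19 of the 44 members averaged under 1 TPM in wild type, among them the cartilage collagen Col2a1, at 0 to 0.0603 CPM.

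Collagen transcripts declined with age in wild-type hearts. From 3 to 8 weeks 17 of 40 tested collagens fell and none rose, with edgeR's quasi-likelihood test and Benjamini-Hochberg adjustment at 0.05, while 8.4% of all 14931 genes tested were called, 4.73% higher and 3.67% lower. The median log2 change of the tested collagens was -0.78, also with Col24a1 at its bound, and that of all genes was -0.0080. The declining members were 7 of 11 fibrillar, 3 of 6 basement membrane, 3 of 5 type VI and both multiplexin chains, 1 of 8 FACIT chains (Col14a1) and 1 of 3 further chains (Col26a1). Col1a1, the major chain of type I collagen, had 496, 666, 569.5 and 593 CPM at 3 weeks and 286, 259, 246 and 276 CPM at 5 weeks, then 219, 244 and 228 CPM at 8 weeks. All 3-week values lay above those of both later ages. The largest falls from 3 to 8 weeks were those of Col24a1, Col26a1 and Col11a1. Col24a1, a minor fibrillar chain, had 0 reads over the 3 libraries of 8 weeks and 19 over the 4 of 3 weeks, which with a floor of 3 reads over the group is at least 5.28-fold lower. Col26a1, a chain first described in testis and ovary, had 0.544, 0.542 and 0.891 CPM at 8 weeks, against 5.02, 4.78, 3.77 and 6.66 CPM at 3 weeks (log2 change -2.92 ± 0.40 SE, adjusted p = 5.98e-06). Col11a1 changed by -2.44 ± 0.74 (adjusted p = 0.0336). Without wild-type replicate 2 or 3 of 8 weeks the number of falls was 10 and 11. Of the 17 falls 9 held under all 12 alternatives run, and that of Col14a1 was lost under 6.

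Between 3 and 5 weeks 12 collagens fell and 1, Col28a1, rose by 0.88 on the log2 scale, against 22.8% of all genes called, 12.7% higher and 10.1% lower. Between 5 and 8 weeks Col26a1 (-1.41), Col28a1 (-0.96), Col4a1 (-0.58) and Col4a5 (-0.45) fell and none rose, against 16.8% of all genes called, 7.68% higher and 9.17% lower. Each of the 4 later calls was lost under at least 1 of the 12 alternatives run.

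**Figure D1:**
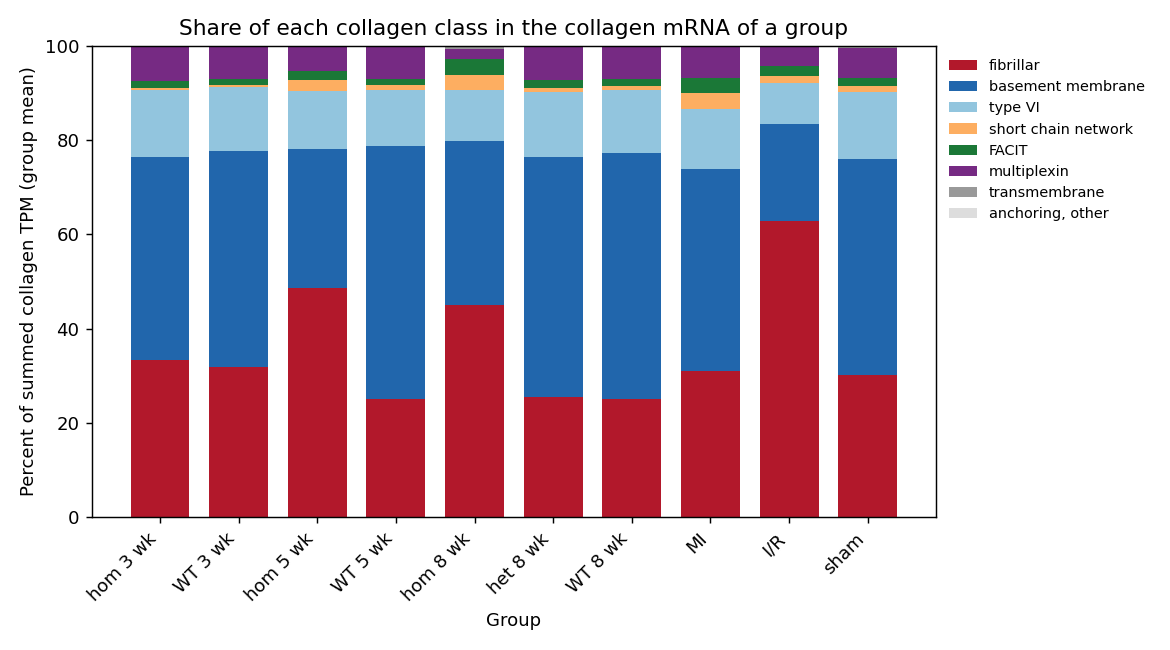
Percent of the summed collagen TPM of each class (y axis) as a stacked bar of group means (x axis, groups; colours, classes). The fibrillar share was 48.7% in homozygous hearts at 5 weeks against 25.1% in wild type, and 62.7% after I/R against 30.2% in sham, while the basement membrane share moved the other way.

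At 3 weeks no collagen was called between homozygous and wild-type ventricles. Col1a1 had 588, 585, 888 and 420.5 CPM in homozygous hearts, so that the 496 to 666 CPM of wild type lay within the homozygous range. The log2 changes of the 35 collagens tested ran from -0.44 to 1.64 with a median of 0.0020, and adjusted p from edgeR's quasi-likelihood test ran from 0.267 to 0.999. None of the 13427 genes tested was called (0%), and 1515 genes, 3 of them collagens (Col9a2, Col7a1 and Col27a1), had an unadjusted p under 0.05. Of these 3 collagens, Col27a1 had 15.5, 12.3, 19.3 and 13.7 CPM in homozygous hearts, against 11.6, 11, 9.45 and 9.18 CPM in wild type, and was not called (0.53 ± 0.14, adjusted p = 0.267). DESeq2 called 112 genes. Without homozygous replicate 3, edgeR called 0 collagens as well.

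At 5 weeks homozygous ventricles had more transcript of the fibril-forming collagens, of the chains that sit on fibrils and of type VIII, while the abundant basement membrane chains had nearly the same level as in wild type and the scarce chains Col4a3 and Col4a4 were lower. Of 32 collagens tested 19 rose and 2 fell, with a median log2 change of 0.89, against 43.7% of all 13323 genes called, 22.3% higher and 21.4% lower, with a median of -0.0010. Members that reach the count filter only through the group where they are high had to differ, so these counts describe the tested members and not the whole family. Col9a2 reached it through the homozygous libraries. In bulk tissue, fewer cells of a type and less RNA per cell cannot be told apart.

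Of 8 fibrillar chains tested at 5 weeks 7 rose. Col3a1 had 3263, 3809, 2786 and 3960.2 CPM in homozygous hearts, against 691, 794, 650.4 and 745 CPM in wild type. Col1a1 had 1217, 1357, 965 and 1401 CPM in homozygous hearts, against the wild-type 246 to 286 CPM. Every homozygous value of both genes was above every wild-type value, and the log2 changes were 2.05 ± 0.09 for Col3a1 (adjusted p = 8.36e-12) and 2.0 ± 0.09 for Col1a1 (adjusted p = 8.57e-12), with edgeR's quasi-likelihood test. Col1a2, the second chain of the type I helix, moved with them by 1.90 ± 0.09. Type V chains start fibrils and set their diameter. Col5a2 had 281, 299, 233 and 325 CPM in homozygous hearts, against 91.6, 100.04, 75.5 and 86.9 CPM in wild type, a log2 change of 1.48 ± 0.09. Col5a1 changed less, by 1.08 ± 0.07, and Col5a3 by 0.61 ± 0.09. Col27a1, a cartilage-associated fibrillar chain, rose by 1.14 ± 0.13. Col11a2 was the tested fibrillar chain that did not pass.

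The basement membrane class behaved otherwise at 5 weeks. Col4a1 had 1664, 1851, 1751 and 1846 CPM in homozygous hearts and 1628, 1626, 1346 and 1582 CPM in wild type, and its log2 change and that of Col4a2 lay so near 0 that they turned sign under single left-out libraries, to at most 0.028 for Col4a1 and -0.052 for Col4a2. On CPM alone all 4 homozygous values were above the wild type, and with scaling by library size alone Col4a1 changed by 0.20 (adjusted p = 0.0203), a scaling that moved the median of all genes by 0.206. Col4a3 and Col4a4 are the scarce chains of the type IV helix best known from the glomerulus, and their starts lie 72 bases apart on opposite strands of chromosome 1. Col4a3 had 7.07, 6.71, 9.71 and 6.44 CPM in homozygous hearts, against 11.7, 15.6, 14.9 and 14.5 CPM in wild type, with no overlap (log2 change -1.13 ± 0.15, adjusted p = 6.93e-06, edgeR's quasi-likelihood test). Col4a4 had 8.26, 6.62, 8.69 and 9.13 CPM in homozygous hearts and 11.4, 12.8, 9.93 and 11.2 CPM in wild type (-0.68 ± 0.14). Col4a5 and Col4a6 did not pass.

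Type VI collagen forms beaded filaments next to basement membranes. Its 3 main chains rose at 5 weeks, and Col6a3 led with 293, 348, 277 and 347 CPM in homozygous hearts against 109, 135, 99.3 and 122 CPM in wild type (1.24 ± 0.09). Col6a2 rose by 0.94 ± 0.07 and Col6a1 by 0.90 ± 0.06. The short-chain type VIII collagen, a hexagonal network of vessel walls, was among the largest relative changes. Col8a1 had 250.2, 258, 202 and 286 CPM in homozygous hearts, against 65.7, 49.8, 36.0 and 47.1 CPM in wild type (2.12 ± 0.13, adjusted p = 2.89e-10). Its partner Col8a2 was scarcer, with 9.25, 7.64, 4.5 and 6.98 CPM in homozygous hearts and 0.934, 1.5, 1.81 and 1.42 CPM in wild type (2.11 ± 0.26). Neither overlapped between the groups.

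Of 5 FACIT chains tested 4 rose at 5 weeks. Col12a1, which binds type I fibrils in tissue under load, had 17.6, 15.8, 10.5 and 16.2 CPM in homozygous hearts, against 2.90, 4.33, 2.35 and 2.59 CPM in wild type (2.10 ± 0.20). Col14a1, a relative that limits fibril fusion, had 106, 130.2, 104 and 122 CPM in homozygous hearts, against 30.9, 35.3, 23.5 and 27.0 CPM in wild type (1.78 ± 0.10). Both were higher in 4 of 4 homozygous libraries than in any wild-type library. Col16a1 rose by 1.28 ± 0.11 and Col9a2, a cartilage FACIT chain, by 2.03 ± 0.34. Col9a2 had 0.442 to 0.834 CPM in wild type and reached the count filter through the homozygous libraries. Its rise is therefore a description and not a test. Of the multiplexins, which carry antiangiogenic fragments at their C-terminal ends, Col15a1 rose by 0.54 ± 0.07 and Col18a1, the source of endostatin, did not pass. Col26a1 (1.0 ± 0.28) and Col7a1, the anchoring fibril chain (0.89 ± 0.26), also rose, and both tested transmembrane collagens did not pass. With all 39 libraries in the fit the calls of Col5a3 and Col15a1 were lost, and the other 19 calls held under all 14 alternatives.

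**Figure D2:**
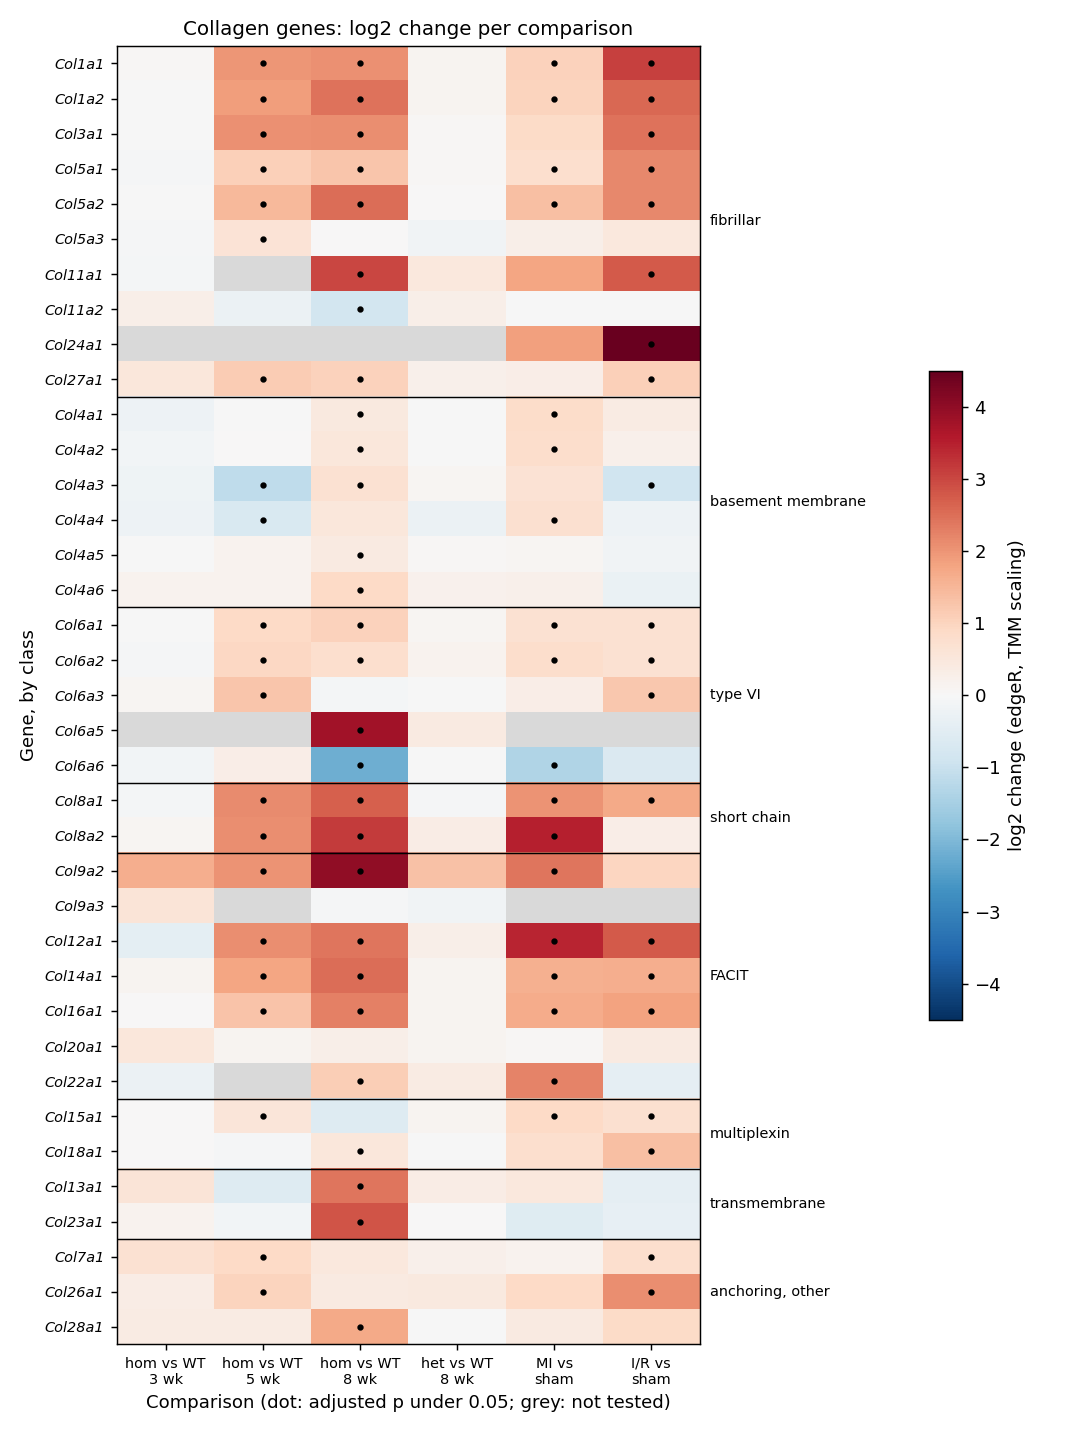
Log2 change of every collagen tested in at least 1 of 6 comparisons (rows, by class) in each comparison (columns), on a colour scale from blue (lower) to red (higher), with a dot at an adjusted p under 0.05 and grey where a gene was not tested. Columns for homozygous hearts at 3 weeks and heterozygous hearts hold no dot, and the other 4 columns are mostly red in the fibrillar, short-chain and FACIT blocks.

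At 8 weeks the homozygous ventricles again had more fibrillar, type VIII and FACIT transcript, and in addition more of the transmembrane collagens Col13a1 and Col23a1, while Col6a6 was lower. Of 36 collagens tested 26 rose and 2 fell, with a median log2 change of 1.04, against 59.8% of all 14314 genes called, 30.8% higher and 29% lower, with a median of 0.022. As at 5 weeks, members that reach the count filter only through the group where they are high had to differ. Col9a2, Col11a1 and Col6a5 reached it through the homozygous libraries. The counts therefore describe the tested members and not the whole family, also in the comparison with heterozygous hearts. Without homozygous replicate 4 the counts were 22 higher and 5 lower, and without homozygous replicate 1 they were 24 higher and 2 lower. Without wild-type replicate 3 only 1 was lower. In heterozygous ventricles at the same age no collagen was called.

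Among fibrillar chains 7 of 9 rose at 8 weeks and 1 fell. Col5a2 had 219, 355, 462 and 613 CPM in homozygous hearts, 56.0, 80.5, 59.96 and 56.3 CPM in heterozygous hearts, and 63.4, 62.7 and 63.8 CPM in wild type. Homozygous values stood clear of both other genotypes, which overlapped each other (2.52 ± 0.25, adjusted p = 3.89e-06, homozygous against wild type, edgeR's quasi-likelihood test). Col1a2 had 868, 1229.9, 1527 and 2413 CPM in homozygous hearts, 214, 363, 232 and 231 CPM in heterozygous hearts, and 239.8, 243 and 241 CPM in wild type (2.46 ± 0.27). Col3a1 had 1169, 1280.3, 1778 and 4383 CPM in homozygous hearts, 379, 675, 377 and 374 CPM in heterozygous hearts, and 438, 425 and 452 CPM in wild type (2.11 ± 0.39, and 1.53 without homozygous replicate 4). Col1a1 ran in parallel, with 619, 744, 985 and 2027 CPM in homozygous hearts, 208, 348, 211 and 218 CPM in heterozygous hearts and 219, 244 and 228 CPM in wild type (2.06 ± 0.33, and 1.61 without that library). The order within the homozygous libraries was the same for these 4 genes, lowest in replicate 1 and highest in replicate 4.

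Other fibrillar chains differed in size and direction at 8 weeks. Col11a1, a developmental partner of type V, had 0.817, 1.16, 3.36 and 1.32 CPM in homozygous hearts, against 0.381, 0.120 and 0 CPM in wild type (3.00 ± 0.71). Its relative Col11a2 fell, with 2.04, 3.58, 2.57 and 5.36 CPM in homozygous hearts, 5.80, 4.98, 6.74 and 7.62 CPM in heterozygous hearts, and 4.46, 5.36 and 6.24 CPM in wild type (-0.84 ± 0.26, adjusted p = 0.0146). The highest homozygous value lay within the wild-type range, and the call was lost with library size only and without wild-type replicate 3. Col27a1 had 14.0, 9.71, 9.52 and 36.9 CPM in homozygous hearts, against 8.75, 7.35 and 6.38 CPM in wild type (1.04 ± 0.40, adjusted p = 0.0388). Its call was lost without homozygous replicate 4 (0.42, adjusted p = 0.123) and without any of the 3 wild-type libraries. Col5a3 did not pass with all libraries (0.01), but without homozygous replicate 4 it fell by 0.65 (SE 0.18, adjusted p = 0.00711), since its homozygous values were 27.6, 45.9, 57.2 and 152 CPM, against 52.9, 59.2 and 71.5 CPM in wild type.

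Of the 6 basement membrane chains 5 rose at 8 weeks, all by less than 1 on the log2 scale. Col4a1 had 1047, 1495, 1691 and 2009.8 CPM in homozygous hearts, 939.9, 1111, 933 and 945 CPM in heterozygous hearts, and 902, 974 and 1185 CPM in wild type, so the lowest homozygous library lay within the wild-type range (0.44 ± 0.15, adjusted p = 0.0265). Without homozygous replicate 4 its change was 0.31 and no longer passed (adjusted p = 0.0749), and the call was also lost without homozygous replicate 3 or wild-type replicate 1 or 2. Col4a2 rose by 0.53 ± 0.17, Col4a5 by 0.42 ± 0.11 and Col4a6, its neighbour on the X chromosome, by 0.91 ± 0.28. The Col4a2 call was lost without wild-type replicate 1 or 2 and the Col4a6 call without wild-type replicate 3. Col4a3, which had fallen at 5 weeks, had 22.3, 12.6, 12.8 and 12.6 CPM in homozygous hearts at 8 weeks and 7.34, 9.04 and 9.05 CPM in wild type (0.70 ± 0.27, adjusted p = 0.0401). This call was lost without homozygous replicate 1, the library at 22.3 CPM, and without any of the 3 wild-type libraries.

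Type VI chains diverged at 8 weeks. Col6a1 had 252, 304, 365 and 675 CPM in homozygous hearts, 161, 226, 163 and 164 CPM in heterozygous hearts, and 173, 167 and 172 CPM in wild type, without overlap between homozygous hearts and wild type (1.04 ± 0.24, and 0.69 without replicate 4). Col6a3, which shares the heterotrimer with it, had 55.5, 52.4, 65.6 and 213 CPM in homozygous hearts, 79.0, 109.9, 79.9 and 81.6 CPM in heterozygous hearts, and 88.3, 83.6 and 97.0 CPM in wild type. In 3 of 4 homozygous libraries it was below every wild-type value, and in replicate 4 it was above them all, so the change over all libraries did not pass (-0.08) while without replicate 4 it fell by 0.78 (SE 0.13, adjusted p = 0.000265). Col6a6, an alternative to the alpha3 chain, had 1.63, 2.66, 2.68 and 2.21 CPM in homozygous hearts, 11.9, 9.04, 7.80 and 7.91 CPM in heterozygous hearts, and 12.6, 7.71 and 7.68 CPM in wild type (-2.20 ± 0.23, adjusted p = 6.97e-06). Homozygous replicate 4 was not an exception for this gene, whose change without it was -2.17. Col6a5, the neighbouring gene on chromosome 9, was close to absent from wild type with 2 reads over 3 libraries, against 48 reads over the 4 homozygous libraries (17.5-fold in pooled CPM, 95% counting interval 4.60 to 149). Without homozygous replicate 1, 3 or 4 Col6a5 did not reach the count filter. Col6a2 rose by 0.76 ± 0.28, a call lost without any of the 3 wild-type libraries.

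Type VIII remained among the large changes. Col8a1 had 179, 224, 293 and 359 CPM in homozygous hearts, 22.3, 52.7, 33.3 and 27.3 CPM in heterozygous hearts, and 34.3, 36.5 and 37.0 CPM in wild type (2.7 ± 0.26). Col8a2 had 19.4, 13.7, 15.8 and 32.7 CPM in homozygous hearts, 1.04, 4.75, 2.33 and 2.10 CPM in heterozygous hearts, and 1.96, 2.11 and 2.06 CPM in wild type (3.15 ± 0.42, 8.89-fold). Neither gene overlapped between homozygous hearts and the other genotypes.

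Of 7 FACIT chains 5 rose at 8 weeks. Col9a2 had the largest fitted change of the tested collagens at this age (4.00 ± 0.51), with 4.09, 5.26, 9.01 and 6.81 CPM in homozygous hearts, 0.518, 1.85, 0.424 and 0.626 CPM in heterozygous hearts, and 0.489, 0.241 and 0.274 CPM in wild type, from 9, 4 and 4 reads. Col14a1 had 144, 133, 142 and 212 CPM in homozygous hearts, 19.0, 45.7, 24 and 18.5 CPM in heterozygous hearts, and 24.8, 21.4 and 28.5 CPM in wild type (2.50 ± 0.28). Col12a1 had 15.6, 14.9, 21.2 and 20.0 CPM in homozygous hearts, 2.07, 4.17, 4.19 and 3.70 CPM in heterozygous hearts, and 5.00, 2.29 and 1.58 CPM in wild type (2.40 ± 0.34). These 3 genes were high in 4 of 4 homozygous libraries. Col16a1 rose by 2.26 ± 0.22 and Col22a1, a chain of tissue junctions, by 1.12 ± 0.41. The Col22a1 call was lost without homozygous replicate 4 (1.06, adjusted p = 0.0523), and also without homozygous replicate 1 or 3 or wild-type replicate 1 or 3.

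Of the multiplexins at 8 weeks, Col18a1 passed over all libraries and Col15a1 did not. Col15a1, a basement membrane proteoglycan of muscle and capillaries, had 116, 76.6, 103 and 291 CPM in homozygous hearts, 191, 261, 193 and 192 CPM in heterozygous hearts, and 204, 188 and 194 CPM in wild type. As for Col6a3, 3 homozygous libraries lay below every wild-type value and replicate 4 above them, and the change was -0.59 without a call over all libraries and -1.12 without replicate 4 (SE 0.18, adjusted p = 0.000206). Col18a1 rose by 0.51 ± 0.17, a call that was lost without homozygous replicate 4 or wild-type replicate 1 or 2. Both tested transmembrane collagens rose. Col23a1 had 16.6, 30.9, 23.8 and 11.4 CPM in homozygous hearts, 3.93, 1.80, 2.39 and 2.05 CPM in heterozygous hearts, and 2.99, 1.87 and 2.81 CPM in wild type (2.84 ± 0.36). Col13a1, known from neuromuscular junctions, had 3.15, 8.90, 7.35 and 2.65 CPM in homozygous hearts, 0.983, 0.869, 1.22 and 1.48 CPM in heterozygous hearts, and 0.870, 0.723 and 1.17 CPM in wild type (2.41 ± 0.43). For both of these genes replicate 4 was the lowest homozygous library. Col28a1, a chain of peripheral nerve, rose by 1.72 ± 0.26.

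**Figure D3:**
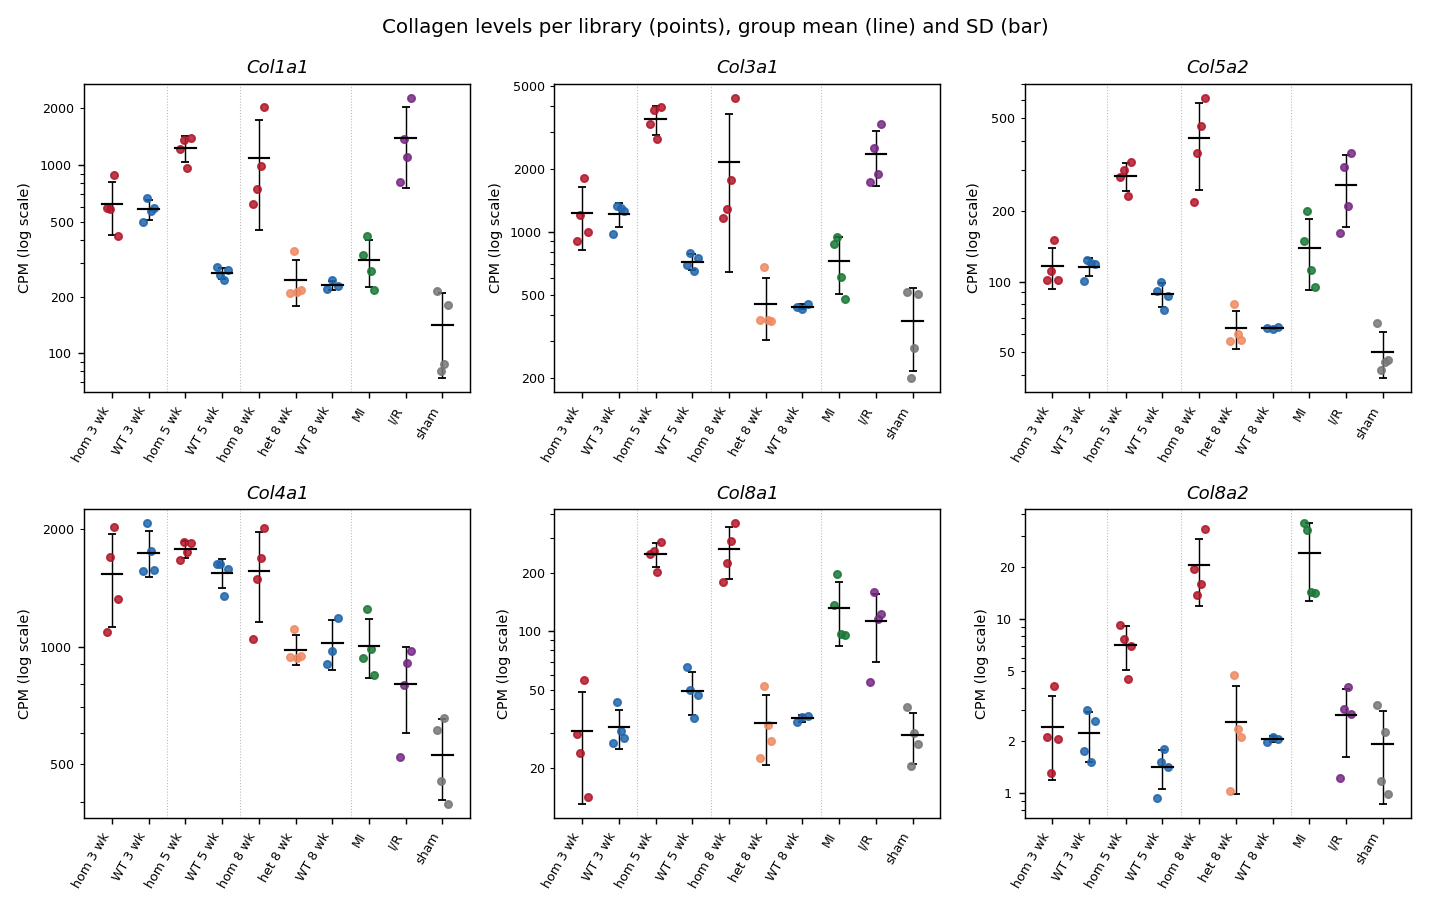
CPM on a log scale (y axis) of 6 collagens in each library (points) by group (x axis), with the group mean (line) and SD (bar). Col3a1 sat at 2786 to 3960.2 CPM in homozygous hearts at 5 weeks against 650.4 to 794 CPM in wild type, and Col8a2 reached 14.1 to 35.4 CPM after MI against 0.990 to 3.23 CPM in sham.

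Heterozygous and wild-type ventricles could not be told apart in the collagens at this size of study. The 36 log2 changes ran from -0.27 to 1.32 with a median of 0.12, and every adjusted p was 1 with edgeR's quasi-likelihood test. None of the 14314 genes was called by edgeR (0%) or by DESeq2, while 326 genes, and of the collagens Col9a2 alone, had an unadjusted p under 0.05. Heterozygous replicate 2 was above the other 3 for most fibrillar chains, as the values above show. Set against heterozygous hearts, homozygous hearts had 24 collagens higher and 2 lower, against 61.9% of all genes called, 32% higher and 30% lower, and 23 higher and 5 lower without homozygous replicate 4. The 5 lower ones were Col6a6, Col11a2, Col15a1 (-1.24), Col6a3 (-0.77) and Col5a3 (-0.48). The wild type and heterozygous comparisons share the homozygous libraries.

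The genotype effect itself differed between ages, as an interaction term over the 39 libraries showed. From 3 to 5 weeks it increased for 13 of 40 collagens and decreased for none, against 20.4% of all genes called, 11.1% with an increase and 9.29% with a decrease. The increase was largest for Col12a1 (2.52 ± 0.46), Col8a1 (2.20 ± 0.42) and Col3a1 (2.06 ± 0.40), and it included Col1a1 (1.93 ± 0.40), Col1a2 (1.90 ± 0.33), Col14a1, Col5a2, Col5a1, Col16a1, Col8a2 and the 3 main type VI chains. No basement membrane chain was among them. From 5 to 8 weeks the effect increased for 7 collagens and decreased for 3, against 28.2% of all genes called, 14.4% with an increase and 13.8% with a decrease. It increased for Col13a1 (3.02 ± 0.54), Col23a1 (3.01 ± 0.51), Col4a3 (1.85 ± 0.39), Col28a1 (1.38), Col4a4 (1.22), Col5a2 (1.07) and Col16a1 (1.01). It decreased for Col6a6 (-2.45 ± 0.39), Col6a3 (-1.30 ± 0.37) and Col15a1 (-1.10 ± 0.38), and without homozygous replicate 4 of 8 weeks the last pair stood at -1.97 and -1.61. The largest fibrillar chains, Col1a1, Col1a2 and Col3a1, did not pass the test of this difference between 5 and 8 weeks. Samples of 5 weeks enter both contrasts.

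**Figure D4:**
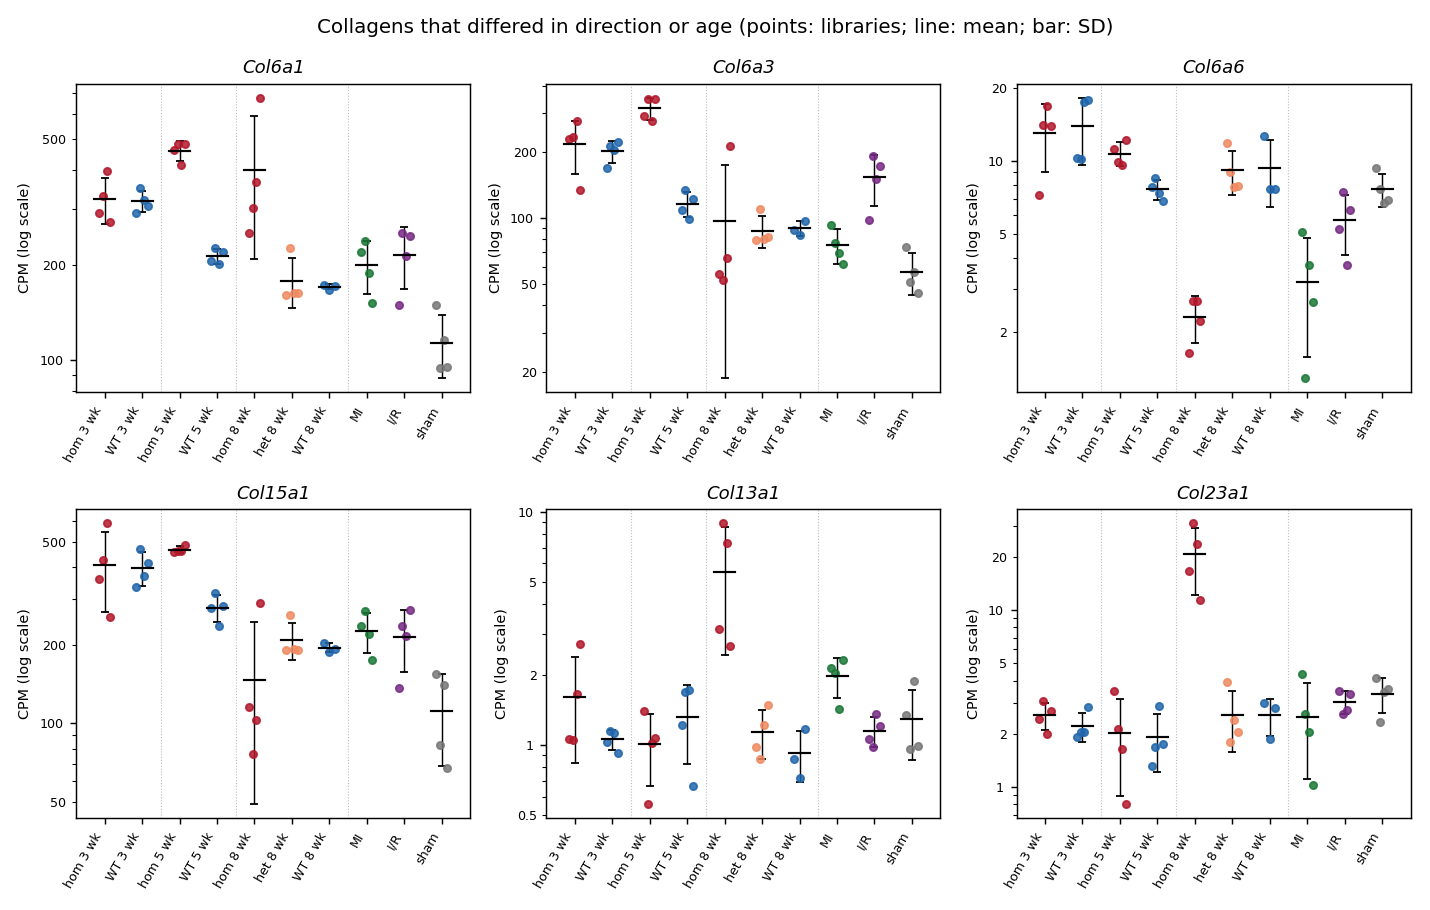
CPM on a log scale (y axis) of 6 collagens in each library (points) by group (x axis), with the group mean (line) and SD (bar). Homozygous hearts at 8 weeks were low in Col6a6 (1.63 to 2.68 CPM), low in 3 of 4 libraries in Col6a3 and Col15a1, and high in Col13a1 and Col23a1.

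In tissue remote from the infarct, collagens were higher after both kinds of ischemic injury. By the median log2 change of a class within each injury, fibrillar chains led 3 days after I/R (2.29). Type VIII (2.76) and FACIT chains (1.95) led 8 weeks after MI. Between the injuries, 2 of 6 tested FACIT chains were called higher after MI and the others were not called. After MI 17 of 35 collagens tested were higher and 1 lower than in sham, with a median log2 change of 0.79, against 11.4% of all 13611 genes called, 6.62% higher and 4.77% lower. After I/R 19 were higher and 1 lower, with a median of 0.77, against 31% of all genes called, 16.9% higher and 14.1% lower. Here too, members that reach the count filter only through the group where they are high had to differ. Col24a1 and Col26a1 reached it through the I/R libraries, Col9a2 mainly through the MI libraries and Col11a1 through the libraries of both injuries. The counts therefore describe the tested members and not the whole family. Both comparisons use the same 4 sham libraries, whose 2 older members were lower in several collagens. Against shams of the same age alone, MI gave 10 higher and 0 lower, and I/R gave 15 higher and 0 lower. Without MI replicate 2 the number higher after MI was 9, and without the first 20-week sham it was 10.

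Of 10 fibrillar chains tested, 4 rose after MI and 8 after I/R. Those after MI were Col1a1, Col1a2, Col5a1 and Col5a2. The MI call of Col5a1 was lost under 7 of 15 alternatives, with shams of the same age among them. That of Col1a2 was lost under 2, and that of Col5a2 held under all 15. Col1a1 had 333, 421, 273 and 216 CPM after MI and 812, 1369.9, 1110.3 and 2283 CPM after I/R, against 214 and 181 CPM in 12-week and 80.8 and 87.1 CPM in 20-week shams. The MI values lay above the shams and the I/R values above both. Its change was 1.04 ± 0.31 after MI (adjusted p = 0.0429), a call lost under 8 alternatives with DESeq2 among them, and 3.09 ± 0.33 after I/R (adjusted p = 9.54e-06, 8.51-fold), with edgeR's quasi-likelihood test. Col3a1 had 871, 947, 608 and 477 CPM after MI and 1728, 2510.1, 1899 and 3260.2 CPM after I/R, against 517 and 504 CPM in 12-week and 199.5 and 278 CPM in 20-week shams. After MI it overlapped the younger shams and did not pass (0.85, adjusted p = 0.0519), whereas against the 20-week shams alone it rose by 1.44 (adjusted p = 0.00938), and after I/R it rose by 2.43 ± 0.28. Col5a2 had 149, 200.3, 112 and 94.8 CPM after MI and 161, 311, 211 and 355 CPM after I/R, against 66.4 and 46.3 CPM in 12-week and 41.7 and 45.2 CPM in 20-week shams. It rose in both, by 1.36 ± 0.23 after MI and 2.15 ± 0.24 after I/R.

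Scarce fibrillar chains also rose after I/R. Col24a1, a chain of developing bone and cornea, had 1.62, 0.890, 1.04 and 4.27 CPM after I/R and 3 reads in all over the 4 shams. The I/R libraries held 110 reads, which is 31.1-fold in pooled CPM with a 95% counting interval of 10.4 to 153. Replicate 4 alone held 67 of these reads, and the pooled interval does not cover the spread between libraries. Since Col24a1 reached the count filter through the I/R libraries, its rise is a description and not a test. Col11a1 had 3.57, 1.78, 2.08 and 7.01 CPM after I/R, against 0.987 and 0 CPM in 12-week and 0.319 and 0.452 CPM in 20-week shams (2.76 ± 0.57). It reached the count filter through the libraries of both injuries, so its rise too is a description.

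Of the 6 basement membrane chains 3 rose after MI, and after I/R none rose and 1 fell. Col4a1 had 935, 1251, 984 and 846 CPM after MI and 522, 799, 909 and 972 CPM after I/R, against 612 and 395 CPM in 12-week and 451 and 656 CPM in 20-week shams. It rose by 0.81 ± 0.19 after MI, where no value overlapped the shams, with Col4a2 at 0.79 ± 0.18 and Col4a4 at 0.72 ± 0.20. Against the 20-week shams alone none of these 3 passed, at 0.70 for Col4a1 (adjusted p = 0.0963), 0.72 for Col4a2 (adjusted p = 0.0741) and 0.84 for Col4a4 (adjusted p = 0.0657). The Col4a1 call was also lost without MI replicate 2, and that of Col4a4 under 8 of 15 alternatives. Col4a3 had 11, 16.1, 10.2 and 9.13 CPM after MI and 3.49, 3.83, 3.52 and 5.92 CPM after I/R, against 8.52 and 5.64 CPM in 12-week and 3.94 and 8.58 CPM in 20-week shams. It fell after I/R by 0.90 (SE 0.25, adjusted p = 0.0132), with overlap, and this call was lost with 12-week shams alone (adjusted p = 0.0559), with library size scaling and without the second 20-week sham.

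Of the type VI chains, Col6a1 had 219.9, 239, 189 and 152 CPM after MI and 149.9, 253, 214 and 246 CPM after I/R, against 149.6 and 95.3 CPM in 12-week and 94.5 and 116 CPM in 20-week shams (0.70 ± 0.17 after MI and 0.69 ± 0.17 after I/R). Both calls were lost against shams of the same age (adjusted p = 0.0535 after MI and 0.0617 after I/R), and the MI call also without MI replicate 2 or the first 20-week sham. Col6a3 had 93.2, 77.2, 68.9 and 61.8 CPM after MI and 98, 191, 151 and 173 CPM after I/R, against 74.1 and 45.7 CPM in 12-week and 50.9 and 56.8 CPM in 20-week shams, and it rose after I/R (1.2 ± 0.18). Col6a6 fell after MI, with 5.10, 1.29, 3.77 and 2.65 CPM against 9.33 and 6.93 CPM in 12-week and 7.66 and 6.70 CPM in 20-week shams (-1.35 ± 0.30, adjusted p = 0.0108), without overlap, and that call was lost against the 20-week shams alone.

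Type VIII and the FACIT chains led after MI. Col8a2 had 35.4, 32.3, 14.4 and 14.1 CPM after MI and 1.22, 3.03, 4.08 and 2.87 CPM after I/R, against 3.23 and 0.990 CPM in 12-week and 1.17 and 2.26 CPM in 20-week shams. MI libraries were above all others, while I/R libraries overlapped the shams (3.48 ± 0.39 after MI, 11.2-fold, adjusted p = 0.000156). Col8a1 rose in both, with 136, 197, 96.8 and 95.8 CPM after MI and 54.9, 159, 116 and 123 CPM after I/R, against 40.7 and 26.5 CPM in 12-week and 20.4 and 30.3 CPM in 20-week shams (2.03 ± 0.29 after MI and 1.71 ± 0.28 after I/R). Col12a1 had 42.1, 53.0, 24.4 and 23.2 CPM after MI and 13.2, 31.7, 17.6 and 34.1 CPM after I/R, against 4.04 and 2.18 CPM in 12-week and 2.45 and 3.39 CPM in 20-week shams (3.42 ± 0.35 after MI and 2.75 ± 0.35 after I/R). Neither Col8a1 nor Col12a1 overlapped between injury and sham. Col14a1 rose by 1.60 ± 0.27 after MI and 1.63 ± 0.27 after I/R, and Col16a1 by 1.67 ± 0.26 after MI and 1.82 ± 0.26 after I/R. Col9a2 rose after MI, by 2.42 ± 0.58, a call lost against the 20-week shams alone and without MI replicate 2 or the first 20-week sham. Since Col9a2 reached the count filter mainly through the MI libraries, its rise is a description and not a test. Col22a1 rose after MI, with 10.5, 9.77, 7.32 and 5.04 CPM against 2.06 and 1.19 CPM in 12-week and 1.38 and 1.66 CPM in 20-week shams (2.24 ± 0.28). Of the multiplexins, Col15a1 rose by 0.90 ± 0.24 after MI and 0.72 ± 0.24 after I/R, and Col18a1 by 1.34 ± 0.24 after I/R. The Col15a1 call was lost under 6 of 15 alternatives after MI and 7 of 15 after I/R, with shams of the same age among them in both (adjusted p = 0.117 after MI and 0.106 after I/R). Col26a1 (2.08 ± 0.54) and Col7a1 (0.77 ± 0.25) rose after I/R, and both calls were lost against the 12-week shams alone (adjusted p = 0.0614 for Col26a1 and 0.257 for Col7a1). The Col7a1 call was lost under 6 of 15 alternatives. No transmembrane collagen was called after either injury.

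Set directly against I/R, MI hearts had 7 collagens higher and 8 lower, against 20.1% of all genes called, 8.84% higher and 11.2% lower. The higher ones were Col8a2 (3.19 ± 0.37), Col22a1 (2.63 ± 0.27), Col4a3 (1.57 ± 0.24), Col9a2, Col4a4, Col13a1 and Col4a2. Without I/R replicate 1 or 2, or MI replicate 1, the number higher was 4. The Col8a2, Col22a1, Col4a3 and Col4a4 calls held under all 14 alternatives, while that of Col13a1 was lost under 12, that of Col9a2 under 11 and that of Col4a2 under 6. The lower ones were 7 of 10 fibrillar chains and Col6a3. Among them were Col24a1 (-2.61 ± 0.59), Col1a1 (-2.05 ± 0.32) and Col3a1 (-1.58 ± 0.27). Col9a2 reached the count filter mainly through the MI libraries and Col24a1 through the I/R libraries. The differences of Col9a2 and Col24a1 are therefore descriptions and not tests. Of the lower calls that of Col5a2 was lost, under 4 of the 14. The injury, the interval since surgery and the age all differ between these groups and cannot be told apart.

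The shift between classes can be read as shares of the summed collagen TPM. Fibrillar chains made up 48.7 ± 2.71% in homozygous hearts and 25.1 ± 0.624% in wild type at 5 weeks (SD, n = 4 each). At 8 weeks they made up 44.9 ± 5.84% in homozygous hearts (42.1 ± 1.42% without replicate 4), 25.4 ± 2.43% in heterozygous hearts and 25.0 ± 1.37% in wild type (n = 4, 4 and 3). They made up 31.0 ± 2.81% after MI and 62.7 ± 4.52% after I/R, against 30.2 ± 7.71% in sham (n = 4 each). The fibrillar share of MI hearts, 28 to 34.0%, overlapped that of the 12-week shams (32.6 and 40.0%) and lay above both 20-week shams (25.6 and 22.8%), whereas that of I/R hearts was above every sham. Basement membrane chains gave 29.3 ± 2.34% in homozygous hearts and 53.7 ± 0.946% in wild type at 5 weeks. Multiplexins gave 2.23 ± 0.608% in homozygous hearts at 8 weeks, against 7.02 ± 0.103% in heterozygous hearts and 6.69 ± 0.513% in wild type. Type VIII and X chains gave 3.11 ± 0.367% in homozygous hearts at 8 weeks against 0.980 ± 0.0456% in wild type, and 3.53 ± 0.664% after MI and 1.5 ± 0.435% after I/R against 1.32 ± 0.130% in sham. A share falls when other classes grow, and the summed basement membrane level was 3140 ± 159 CPM in homozygous hearts and 2719 ± 232 CPM in wild type at 5 weeks.

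Pairs of chains were compared by the ratio of their TPM within a library, read between groups and not as absolute chain numbers. The Col6a1 to Col6a3 ratio, chosen after its values were seen, was 12.4, 15.8, 15.2 and 8.64 in homozygous hearts at 8 weeks, 5.48 to 5.62 in heterozygous hearts and 4.85 to 5.47 in wild type. Unlike the level of Col6a3, the ratio of replicate 4 was on the same side as the other 3 homozygous libraries. At 5 weeks it was 3.99 ± 0.245 in homozygous hearts and 5.06 ± 0.395 in wild type, on the other side of wild type. It was 7.27 ± 0.898 after MI and 3.89 ± 0.229 after I/R, against 5.46 ± 0.271 in sham, with no overlap between the 3 groups. The Col5a1 to Col5a2 ratio was 0.773 ± 0.143 in homozygous hearts, 1.91 ± 0.113 in heterozygous hearts and 1.87 ± 0.0817 in wild type at 8 weeks. At 5 weeks it was 1.45 ± 0.0936 in homozygous hearts and 1.90 ± 0.0852 in wild type. It was 0.930 ± 0.148 after MI and 1.39 ± 0.0451 after I/R, against 1.37 ± 0.0719 in sham. The Col1a1 to Col1a2 ratio was 1.33 ± 0.195 in homozygous hearts, 1.79 ± 0.0485 in heterozygous hearts and 1.81 ± 0.0857 in wild type at 8 weeks. At 5 weeks it was 1.82 ± 0.0436 in homozygous hearts and 1.69 ± 0.131 in wild type, with overlap. It was 1.42 ± 0.0593 after MI and 1.95 ± 0.19 after I/R, against 1.35 ± 0.231 in sham, and the I/R libraries lay above every sham. Col4a1 to Col4a2 stayed between 1.07 and 1.30 in the means of all groups, and Col3a1 to Col1a1 at 8 weeks was 1.27 ± 0.128 in homozygous hearts and 1.28 ± 0.0973 in wild type. The Col3a1 to Col1a1 ratio was 1.87 ± 0.0576 in homozygous hearts and 1.81 ± 0.178 in wild type at 5 weeks. It was 1.55 ± 0.131 after MI and 1.19 ± 0.194 after I/R, against 1.82 ± 0.238 in sham, and the I/R libraries lay below every sham.

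**Figure D5:**
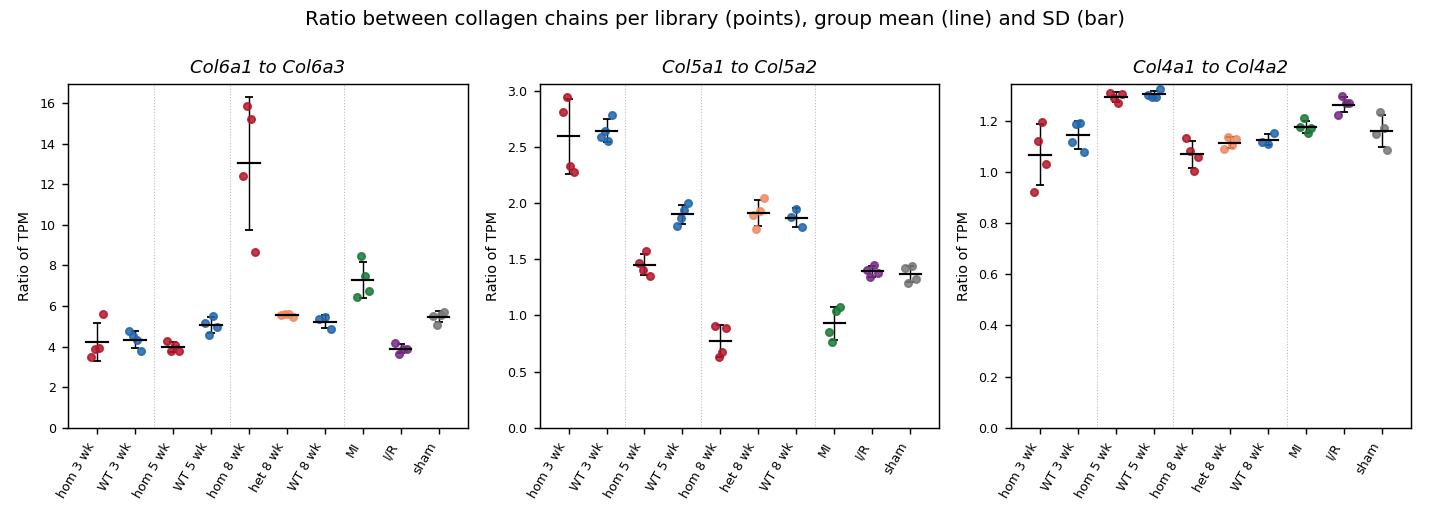
Ratio of the TPM of 2 chains of the same collagen type (y axis) in each library (points) by group (x axis), with the group mean (line) and SD (bar). The Col6a1 to Col6a3 ratio was 8.64 to 15.8 in homozygous hearts at 8 weeks against 4.85 to 5.47 in wild type. The group means of Col4a1 to Col4a2 lay between 1.07 and 1.30, with the 5-week libraries above those of 3 and 8 weeks.

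The calls of homozygous hearts at 5 and 8 weeks shared 14 higher collagens, 73.7% of the 19 at 5 weeks and 53.8% of the 26 at 8 weeks, near the 72.2% and 48.7% of all genes called higher at those ages. Homozygous hearts at 5 weeks shared 16 with I/R (84.2% of each list) and 13 with MI (68.4% of the 19 and 76.5% of the 17). Over all genes called higher, homozygous hearts at 5 weeks shared 51.5% of their list, and 66.5% of the I/R list, with I/R, and 20.8% of theirs and 68.7% of the MI list with MI. Homozygous hearts at 8 weeks shared 14 with I/R (53.8% of the 26 and 73.7% of the 19) and 15 with MI (57.7% of the 26 and 88.2% of the 17). Over all genes the shares at 8 weeks were 35.7% and 68.3% with I/R and 16% and 78% with MI. Col6a6 was lower in both homozygous hearts at 8 weeks and MI hearts.

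Genes that make and process collagen were described from lists of the pathway. Their counts stand beside the 43.7% of all genes called in homozygous hearts at 5 weeks, 59.8% at 8 weeks, 11.4% after MI and 31% after I/R. Of 19 genes of procollagen folding and modification, 15 were higher and 3 lower in homozygous hearts at 5 weeks, 13 and 5 at 8 weeks, 7 and 1 after MI and 12 and 2 after I/R. P4hb, a subunit of prolyl 4-hydroxylase, rose by 1.45 at 5 weeks and 1.74 at 8 weeks in homozygous hearts. Serpinh1 encodes HSP47, the collagen chaperone. It had 701, 692, 635 and 710 CPM in homozygous hearts at 5 weeks, against 311, 300, 332 and 329 CPM in wild type (0.90, adjusted p = 2.19e-09, edgeR's quasi-likelihood test). At 8 weeks, where it was picked out after its values were seen, it had 149, 189, 166 and 338 CPM in homozygous hearts, against 280, 359 and 322 CPM in wild type, and fell by 0.79. In 3 of 4 homozygous libraries of 8 weeks the chaperone was thus below wild type while Col1a1 was above it, and replicate 4 lay within the wild-type range. After I/R Serpinh1 rose by 1.18.

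Of the genes of propeptide removal and crosslinking, 8 of 11 tested were higher in homozygous hearts at 5 weeks with none lower, 11 of 13 at 8 weeks with 1 lower, and 8 of 12 after MI and 10 of 12 after I/R with none lower. Lox, the lysyl oxidase that crosslinks fibrillar collagen, had 60.4, 66.2, 49.0 and 70.0 CPM in homozygous hearts at 5 weeks, against 7.85, 5.66, 9.66 and 10.01 CPM in wild type (2.68). At 8 weeks it had 99.7, 206, 258 and 156 CPM in homozygous hearts, against 3.75, 4.64 and 4.39 CPM in wild type (5.22), and it rose by 3.59 after I/R. Loxl3 rose by 2.77 in homozygous hearts at 8 weeks, by 2.13 after MI and by 2.28 after I/R, and the procollagen N-proteinase Adamts2 by 1.24 and 2.31 in homozygous hearts at 5 and 8 weeks.

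Of 9 secretion genes, 7 were higher and 1 lower in homozygous hearts at 5 weeks, 6 higher and 2 lower at 8 weeks, 0 higher and 1 lower after MI, and 3 higher and 2 lower after I/R. Of 8 collagen receptor genes tested, 5 were higher and 1 lower in homozygous hearts at both 5 and 8 weeks, with 3 higher after MI and 5 after I/R, so that at 8 weeks the count was not far above the 59.8% of all genes called. Mrc2, the uptake receptor for collagen fragments, rose in all 4 comparisons, by 1.10 and 1.09 in homozygous hearts at 5 and 8 weeks, 0.91 after MI and 1.18 after I/R. Of the breakdown genes 6 of 10 were higher and 3 lower in homozygous hearts at 5 weeks, 8 of 12 higher and 2 lower at 8 weeks, 5 of 13 higher and 1 lower after MI, and 6 of 13 higher and none lower after I/R. Timp1, an inhibitor of collagenases, rose by 4.42 in homozygous hearts at 5 weeks, with 118, 115, 79.8 and 107 CPM against 7.10, 3.00, 3.34 and 3.67 CPM in wild type, by 1.81 after MI and by 4.21 after I/R. Ctsk, a collagen-cleaving cathepsin, rose by 1.35 and 3.52 in homozygous hearts at 5 and 8 weeks. No gene of these 5 lists was called in homozygous hearts at 3 weeks or in heterozygous hearts.

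Markers of the cells that make collagen were also read from lists. Their counts too stand beside 43.7% of all genes called at 5 weeks, 59.8% at 8 weeks, 11.4% after MI and 31% after I/R. The summed level of 10 fibroblast markers was 2785 to 3705 CPM in homozygous hearts and 2157 to 2343 CPM in wild type at 5 weeks, with 8 markers called higher and 1 lower. At 8 weeks it was 6788 to 11934 CPM in homozygous hearts and 2005 to 2485 CPM in wild type, with 9 higher. It was 2843 to 3967 CPM after MI (7 higher, 1 lower) and 2204 to 2495 CPM after I/R (5 higher, 1 lower), against 1988 to 2575 CPM in sham. The I/R sums lay within the sham range. Summed fibrillar collagen was 3887 to 8457 CPM after I/R, against 559 to 1194 CPM in sham. Its relation to the fibroblast markers was not tested. The 8 markers of activated fibroblasts summed to 1016 to 1826 CPM in homozygous hearts and 532 to 651 CPM in wild type at 5 weeks, and to 3626 to 4302 CPM in homozygous hearts and 319 to 346 CPM in wild type at 8 weeks. They summed to 799 to 2160 CPM after MI and 998 to 2233 CPM after I/R, against 274 to 394 CPM in sham. Of these markers 7 were higher and 1 lower in homozygous hearts at 5 weeks, 6 higher at 8 weeks, 4 higher after MI and 6 higher after I/R. At 8 weeks the fibroblast markers thus stood at a higher level than at 5 weeks in homozygous hearts. Summed fibrillar collagen in homozygous hearts was 6804 ± 991 CPM at 5 weeks and 5544 ± 3156 CPM at 8 weeks (SD, n = 4). At 8 weeks replicate 4 had 10114 CPM and the other 3 had 4021 ± 1012 CPM. In wild type this sum was also lower at 8 weeks (1132 to 1169 CPM) than at 5 weeks (1483 to 1742 CPM). Age and any separate preparation of the 5-week libraries cannot be told apart in these sums.

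Counts for other cell types stand beside the same 43.7% of all genes called at 5 weeks, 59.8% at 8 weeks, 11.4% after MI and 31% after I/R. All 8 macrophage markers were higher in homozygous hearts at 5 weeks (1814 to 2355 CPM, against 411 to 455 CPM in wild type), at 8 weeks (1301 to 2538 CPM, against 379.7 to 491 CPM in wild type) and after I/R (1154 to 1899 CPM), and 2 were higher after MI (431 to 657 CPM), against 258 to 443 CPM in sham. Of 8 cardiomyocyte markers 7 were lower in homozygous hearts at 5 weeks and 6 at 8 weeks, 1 after MI and 7 after I/R. Of 9 endothelial markers 8 were lower at 5 weeks, 4 lower and 4 higher at 8 weeks, none was called after MI and 3 were lower after I/R. Of 9 smooth muscle and pericyte markers 8 were lower at 5 weeks, 5 lower and 1 higher at 8 weeks, 2 lower and 1 higher after MI, and 3 lower and 1 higher after I/R. Of the Schwann cell list 1 of 4 tested markers was higher at 5 weeks and 2 of 4 at 8 weeks, and of the mesothelial list 1 of 3 was lower at 5 weeks and 3 of 4 were higher at 8 weeks. No marker of either list was called after MI or I/R. The cartilage and valve list summed to 163 to 482 CPM in homozygous hearts at 8 weeks and 14.5 to 24.3 CPM in wild type, where Prg4 rose by 4.44 and Sox9 (0.66), Cnmd (-0.25) and Hapln1 (0.01) did not pass. At 5 weeks 2 of 2 tested markers of that list were higher, after MI 1 of 3 was higher and 1 lower, and after I/R 1 of 3 was higher. The adipocyte list spread from 2.82 to 91.6 CPM among the MI libraries, against 0.753 to 10.05 CPM in sham, with 3 of 3 tested markers higher, and 2 of 3 were higher in homozygous hearts at 8 weeks. The atrial list, with none of 3 called in any of these comparisons, spread from 8.79 to 699.7 CPM after MI, against 28.9 to 283 CPM in sham. In heterozygous hearts and in homozygous hearts at 3 weeks no marker of any list was called. The part of these cell types in the collagen results was not tested.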

How the data were processed

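Polyadenylated RNA of 39 mouse left ventricles was sequenced after Trizol extraction using the TruSeq stranded mRNA kit, as stated per the labels' protocols. Reads were aligned with STAR 2.7.3a and counted with featureCounts of Subread 2.0.0 on mm10, per the submitters' processing notes. Neither the annotation release nor the strand setting is given in the sources used here. The authors deposited raw counts per Ensembl gene for each library, with no normalization. GENCODE M21 named 36429 of 38293 gene IDs, and unnamed IDs held 0.133% of counts.

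CPM values were computed here on library totals, and TPM with exon-union lengths. Without unique molecular identifiers reads are not independent molecules, so counting intervals cover counting error only. The main test was edgeR 4.0.16 (R 4.3.3, limma 3.58.1) with TMM scaling, its default filter on low counts, the quasi-likelihood test and Benjamini-Hochberg adjustment over all genes tested, at a threshold of 0.05. A fit used the libraries of a single age, or of the surgery set with its 4 shams pooled. Contrasts between ages and differences of genotype effect were taken from 1 fit of all 39 libraries. SE is the log2 change divided by the square root of F.

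The 15 members listed by class were named throughout by class, with the 3 largest rises and falls of each comparison and any member called against the main direction, and up to 4 genes with the smallest p of each pathway list. The members and lists were chosen with earlier results of these data known. Alternatives were RLE factors, library size only, no filter, DESeq2 1.42.0, a replicate block, all libraries in 1 fit, age-matched shams and leaving out each library. The 57 pairs of replicates differed beyond counting noise (chi-square per gene 4.03 to 97.4). The scripts were tested on simulated counts with genes of known fold change.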

Additional observations from a re-analysis of the deposited data

Results flagged for a closer look

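Among the 15 collagens named by class, 13 of 135 group tests found a library far from the others of its group by Dixon's criterion. Chance alone marks about 1 in 20 groups, but the 15 collagens were read in the same libraries. The 13 flags are therefore not independent, and no excess over chance can be read from them. Of these, 8 belonged to heterozygous replicate 2 at 8 weeks, which had 348 CPM of Col1a1 where the other 3 had 208 to 218, 363 CPM of Col1a2 (others 214 to 232), 675 CPM of Col3a1 (others 374 to 379) and 80.5 CPM of Col5a2 (others 56.0 to 59.96). It also had 1111 CPM of Col4a1 (others 933 to 945), 226 CPM of Col6a1 (others 161 to 164), 109.9 CPM of Col6a3 (others 79.0 to 81.6) and 261 CPM of Col15a1 (others 191 to 193). Homozygous replicate 4 at 8 weeks stood apart with 213 CPM of Col6a3 (others 52.4 to 65.6) and 212 CPM of Col14a1 (others 133 to 144). Homozygous replicate 4 at 5 weeks had 486 CPM of Col15a1 (others 457 to 461). In wild type, replicate 3 at 5 weeks had 1346 CPM of Col4a1 (others 1582 to 1628) and replicate 1 at 3 weeks had 39.2 CPM of Col14a1 (others 51.0 to 52.4). What sets these libraries apart was not tested.

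The genotype effect at 5 weeks exceeded that at 3 weeks in the interaction test, on the log2 scale, for Col1a1 (1.93), Col1a2 (1.90), Col3a1 (2.06), Col5a1 (1.13), Col5a2 (1.49), Col6a1 (0.90), Col6a3 (1.15), Col8a1 (2.20), Col8a2 (2.0), Col12a1 (2.52) and Col14a1 (1.64). Leaving out single libraries kept 10 of these calls, and that of Col6a3 was lost once. From 5 to 8 weeks the effect increased for Col5a2 (1.07) and decreased for Col6a3 (-1.30) and Col15a1 (-1.10). The Col15a1 difference ran from -1.61 to -0.89 over the left-out libraries and lost its call in 4 of them.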

How the results depend on the processing

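Of the log2 changes of the named collagens recomputed under each alternative, 2598 values kept their direction and side of the threshold, 217 lost a call, 19 gained one and 14 changed sign. Of the counts of collagens called, 350 stayed within 1.5 times and 30 did not. Calls held under every alternative for 19 of 21 collagens in homozygous hearts at 5 weeks, 18 of 28 at 8 weeks, 14 of 20 after I/R and 7 of 18 after MI. In homozygous hearts at 5 weeks, library size only gave Col18a1 0.17 and Col4a1 0.20 on the log2 scale. Leaving out single libraries of that age gave -0.15 to 0.0063 for Col18a1 (above 0 without wild-type replicate 2), -0.067 to 0.028 for Col4a1 (above 0 without wild-type replicate 1, 2 or 4 or homozygous replicate 1) and -0.052 to 0.047 for Col4a2 (below 0 without wild-type replicate 3 or homozygous replicate 2 or 3). At 8 weeks Col6a3 was 0.11 with library size only and ran from -0.78 without homozygous replicate 4 to 0.12 without homozygous replicate 2, with values above 0 also without homozygous replicate 1 or 3. Library size only left 1 collagen lower in homozygous hearts at 8 weeks, 0 lower after I/R and 4 higher in MI against I/R, and it moved the median of all genes by 0.187, 0.205 and -0.124. Shams of the same age gave 10 higher and 0 lower after MI and 0 lower after I/R, with fewer libraries in the contrast. No filter on low counts gave 0 collagens higher at 5 against 3 weeks in wild type. With the replicate block 11 collagens were higher after MI; replicate numbers do not pair these libraries (same-number correlations of -0.113 to 0.236 at 3 weeks), and the block gave 20 higher and 2 lower at 5 weeks and 22 higher and 3 lower at 8 weeks in homozygous hearts. Leaving out single libraries gave 1 to 5 lower in homozygous against wild type at 8 weeks (1 without wild-type replicate 3, 5 without homozygous replicate 4), 2 to 5 against heterozygous, 0 to 1 lower after I/R (0 without the second 20-week sham), and 9 to 20 higher after MI (9 without MI replicate 2, 10 without the first 20-week sham). It gave 4 to 6 higher in MI against I/R (4 without I/R replicate 1 or 2 or MI replicate 1). In wild type it gave 10 to 16 lower at 8 against 3 weeks, 0 to 1 higher at 5 against 3 weeks and 1 to 3 lower at 8 against 5 weeks. The genotype effect decreased from 3 to 5 weeks in 0 to 1 collagens. The cause of these changes was not tested. Scarce members such as Col24a1, Col6a5 and Col11a1 rest on few reads, and 4 members could not be tested at this depth.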
